A study of Mus musculus with 6 samples.

Results

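The mouse genes for heat shock proteins and DnaJ chaperones were followed in ribosome-associated RNA of skeletal muscle from mice given vehicle or 17β-estradiol (E2). They were chosen by symbol, as every gene whose symbol starts with Hsp or Dnaj followed by a letter or digit, with the proteoglycan gene Hspg2 and pseudogenes left out. Cryab, Bag3, Calr, Canx and Pdia3 were added by name. The rule gave 79 genes of the 24062 in the count table, with 3 in the Hsp90 family, 13 in the Hspa (Hsp70) family, 8 in the Hspb (small heat shock protein) family and 45 in the Dnaj family. The other members are Hspd1, Hspe1, Hsph1, Hspbp1 and Hspbap1, which have other Hsp symbols, and the 5 added by name.

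Chaperones bind unfolded or partly folded proteins and keep them from aggregating. Hsp70 proteins grip and release short stretches of a client in a cycle driven by ATP, J-domain proteins of the Dnaj family bring clients to Hsp70 and switch on its ATPase, and nucleotide exchange factors such as Bag3 reset it. Hsp90 acts later on more folded clients, among which are steroid hormone receptors including ERα, and small heat shock proteins hold clients without ATP. The endoplasmic reticulum (ER) and the mitochondria have their own sets, and in striated muscle several small heat shock proteins protect the contractile filaments.

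All mice were of a B6.129S4 line whose Rosa26 locus holds the CAG-EGFP/Rpl10a construct, a GFP-tagged ribosomal protein L10a behind a floxed stop. In the study's methods a VECad-Cre transgene removed the stop, so that the tag is made in endothelial cells (GFP-L10aEC mice), and all mice were ovariectomized females. They received placebo pellets (vehicle) or E2 pellets for 4 weeks. The labels give an age of 4 weeks at treatment, whereas the methods give a later age at ovariectomy. Tagged ribosomes were retrieved from gastrocnemius and soleus with an anti-GFP antibody, and the RNA bound to them was sequenced (TRAPseq). There were 3 vehicle and 3 E2 libraries, each labelled with the numbers of 2 mice. The methods count as many biological replicates per group as there are mouse numbers, which is more than the libraries. Whether each library pools its 2 mice is not stated, so p-values measure the spread between libraries, which may be partly technical.

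The libraries held between 84823 and 451034 counts, and a single count is worth 2.22 CPM (reads of a gene scaled to a common library total) in the deepest and 11.8 CPM in the shallowest, vehicle replicate 3. Vehicle replicates 1 and 2 stood apart from the others. Y-linked genes (4 in the table) had 40 and 63 counts in them and 0 in vehicle replicate 3 and every E2 library, whereas the methods describe females. Vehicle replicates 1 and 2 correlated with each other at r = 0.949 (log2(CPM + 1), across the 1682 genes tested), and with vehicle replicate 3 at 0.569 and 0.575, whereas vehicle replicate 3 correlated with the E2 libraries at 0.676 to 0.768. Fold changes without vehicle replicate 3 or without vehicle replicates 1 and 2 are therefore given beside those of all libraries for the members whose call or sign they change, and for some others. Skeletal muscle fiber markers (20 genes, all detected) summed to between 75658 and 119209 CPM, and endothelial markers (18 genes, all with a count in some library) to between 985 and 6376 CPM. The endothelial markers Pecam1 and Cdh5 were detected in every library and Kdr in all but vehicle replicate 3, and the endothelial sum was highest in vehicle replicates 1 and 2 (4906 and 6376 CPM). Cd36, which muscle fibers and adipocytes also make, held 78.4% of the endothelial marker counts. Of the 5 endothelial markers tested, 4 had a log2 fold change below 0 and 1 above, with a median of -1.31, and 3 were lower at an unadjusted p up to 0.05, of which 1 at an adjusted p below 0.05 (edgeR's quasi-likelihood test), where 15.1% and 2.97% of all genes tested were lower. Kdr followed the sum, with 322 and 262 CPM in vehicle replicates 1 and 2, 0 in vehicle replicate 3 and 15.9, 50.4 and 49.7 CPM with E2. Cdh5 did not, since it was highest in E2 replicate 3 (373 CPM, against 187 and 290 CPM in vehicle replicates 1 and 2). Pecam1 followed the sum in part. It was highest in vehicle replicate 1 (69.2 CPM), but higher in E2 replicate 3 (49.7 CPM) than in vehicle replicate 2 (44.3 CPM). Its other libraries were lower, at 23.6 CPM in vehicle replicate 3 and 23.8 and 35.3 CPM in E2 replicates 1 and 2. In such RNA, fewer cells of a type and less RNA per cell cannot be told apart, and the part of these differences in the results below was not tested.

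Of the 79 members, 71 had a count in some library and 17 passed edgeR's filter on low counts (filterByExpr) and were tested. A further 22 had 20 or more counts over the 6 libraries, 32 had between 1 and 19, and 8 had 0. These 8 were Dnajb8, Dnajb11, Dnajc5b, Dnajc5g, Dnajc6, Dnajc22, Hspb9 and Hspb11, for which 0 of 1350174 counts allows a level of up to 2.22 CPM (3 counts over all libraries, counting error only). The best measured members were Hsp90ab1 with 2792 counts, Canx with 831 and Dnajc19 with 443. All members together summed to 6474, 6204 and 4456 CPM with vehicle and to 5511, 5586 and 4224 CPM with E2, so the groups overlapped and chaperone genes took 0.422% to 0.647% of all counts, depending on the library. Given per kilobase of exon, Hsp90ab1 was also the highest member, at 670.5 ± 198 CPM per kb with vehicle and 650.0 ± 134 with E2 (SD, n = 3). Hspe1 (154 ± 62.0 and 183 ± 67.5), Cryab (114 ± 72.8 and 183 ± 71.6), Dnajc19 (89.1 ± 54.8 and 107 ± 20.1) and Canx (151 ± 93.9 and 40.5 ± 7.75 CPM per kb) came next by the mean over both groups. With E2 alone Hspa9 (66.0 ± 9.99 CPM per kb) was above Canx.

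**Figure D1:**
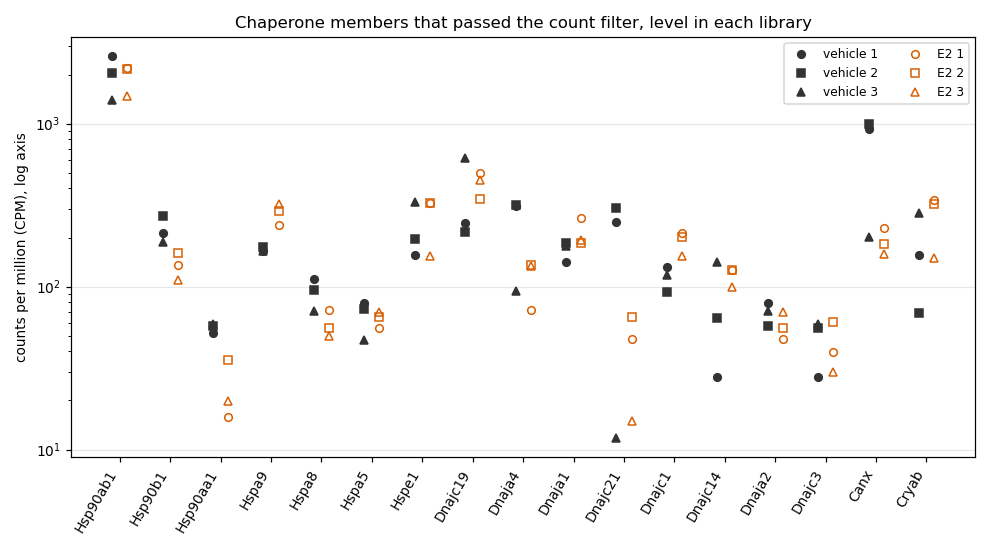
Level of the 17 tested members in each library, in CPM on a log axis, with filled symbols for vehicle, open symbols for E2 and 1 symbol shape per replicate number. Hsp90ab1 lies between 1403 and 2590 CPM over both groups, and for Canx and Dnajc21 vehicle replicates 1 and 2 lie above the 4 other libraries.

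The question asked of each member was whether its level in the ribosome-associated RNA differed between E2 and vehicle. In edgeR's quasi-likelihood test (TMM scaling, Benjamini-Hochberg adjustment over all 1682 genes tested), no member was lower and no member was higher at an adjusted p below 0.05. Among all genes tested, 2.97% were lower and 2.5% higher by that rule. With the looser rule of an unadjusted p up to 0.05, 2 members were lower, Canx and Dnajc21, and 0 were higher, where 15.1% of all genes were lower and 10.5% higher. DESeq2 called 1 lower member at the adjusted threshold, Canx, where it called 2.91% of all genes lower. The log2 fold change was below 0 for 7 of the tested members and above 0 for 10, with a median of 0.07 against 0.01 over all genes tested. Every E2 library was below every vehicle library for 2 tested members, Hsp90aa1 and Hsp90b1 (12.8% of all genes tested), and above them for 3, Hspa9, Dnajc1 and Dnaja1 (8.68%). These 5 members reached p = 0.1 in an exact permutation test (two-sided). This is the smallest value possible for groups of 3, and full separation always gives it, so it adds nothing to the separation. Among them, Hsp90aa1 passed the filter on low counts through the vehicle libraries alone. Its place among the lower tested members is therefore not independent of its direction. Over all 71 members with a count, the low-count Dnajc5 and Dnajc27 were also higher in every E2 library, which made 2 lower and 5 higher against 6.11% and 4.39% of all genes with a count.

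**Figure D2:**
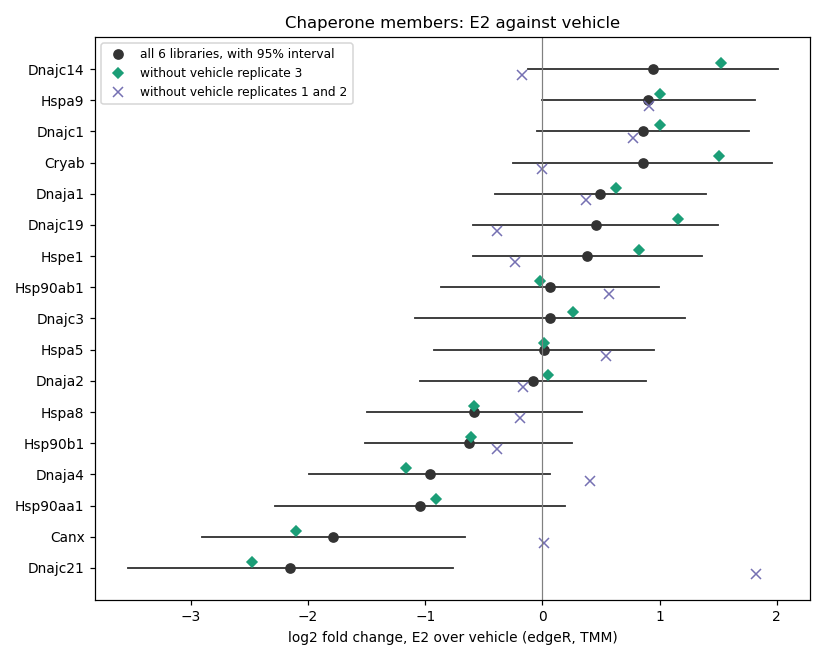
Log2 fold change of each tested member with E2 (edgeR quasi-likelihood fit), as black points with 95% intervals for all 6 libraries, green diamonds without vehicle replicate 3 and purple crosses without vehicle replicates 1 and 2. Canx moves from -1.78 to 0.01 and Dnajc21 from -2.15 to 1.83 when vehicle replicates 1 and 2 are left out, whereas Hspa9 lies at 0.90 and 0.91.

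In the Hsp90 family, the constitutive cytosolic form Hsp90ab1 did not pass the test, and the stress-inducible form Hsp90aa1 and the ER form Hsp90b1 had lower levels with E2 in every library without passing it. Hsp90ab1 had 748, 920 and 119 counts in vehicle replicates 1, 2 and 3 and 277, 429 and 299 in E2 replicates 1, 2 and 3. These counts are 2590, 2040 and 1403 CPM with vehicle and 2200, 2161 and 1487 CPM with E2. The groups overlapped, with the lowest library in the vehicle group, and the log2 fold change was 0.07 (standard error, SE, 0.44, 95% interval -0.86 to 0.995, adjusted p = 0.941 in edgeR's quasi-likelihood test). It was -0.08 when scaled by library totals alone, -0.02 without vehicle replicate 3 and 0.56 without vehicle replicates 1 and 2. Hsp90aa1 had 15, 26 and 5 counts with vehicle and 2, 7 and 4 with E2. Its level was 56.2 ± 3.73 CPM with vehicle and 23.7 ± 10.2 CPM with E2 (SD, n = 3), with every E2 library below every vehicle library. On the log2 scale the change was -1.04 (SE 0.59, adjusted p = 0.272 in edgeR's quasi-likelihood test), and -0.91 without vehicle replicate 3. In edgeR's likelihood ratio test, an alternative, the unadjusted p was 0.0427 and the adjusted p 0.151. Hsp90aa1 passed the filter on low counts through the vehicle libraries alone. It is also in a gene list that the study drew from these libraries, so its direction is not independent evidence. Hsp90b1 (Grp94), which folds secreted and membrane proteins, had 62, 123 and 16 counts with vehicle and 17, 32 and 22 with E2. Its level was 225 ± 43.0 CPM with vehicle and 135 ± 25.9 CPM with E2 (SD, n = 3), the groups did not overlap, and the log2 fold change was -0.63 (SE 0.42, adjusted p = 0.357 in edgeR's quasi-likelihood test). Without vehicle replicates 1 and 2 it was -0.39 (SE 0.58). Among genes with at least 10 counts in every library it was -0.88 (SE 0.32, unadjusted p = 0.0207, adjusted p = 0.116 in the same test). An annotated transcript on the opposite strand, 1810014B01Rik, shares 415 exonic bases with Hsp90b1 and had 1 count in all.

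A share of counts within a library does not depend on scaling between libraries. Hsp90aa1 held 1.97%, 2.75% and 4.03% of the counts of both cytosolic Hsp90 genes with vehicle and 0.717%, 1.61% and 1.32% with E2. The mean was 2.92 ± 1.04% with vehicle and 1.21 ± 0.454% with E2 (SD, n = 3). Because Hsp90aa1 is in the study's list from these libraries, the share is a description and not a further test of its direction. The exact 95% binomial intervals of single libraries overlapped between the groups, with bounds of 1.32% and 9.16% for vehicle replicate 3 and 0.648% and 3.28% for E2 replicate 2, and they cover counting error only.

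**Figure D3:**
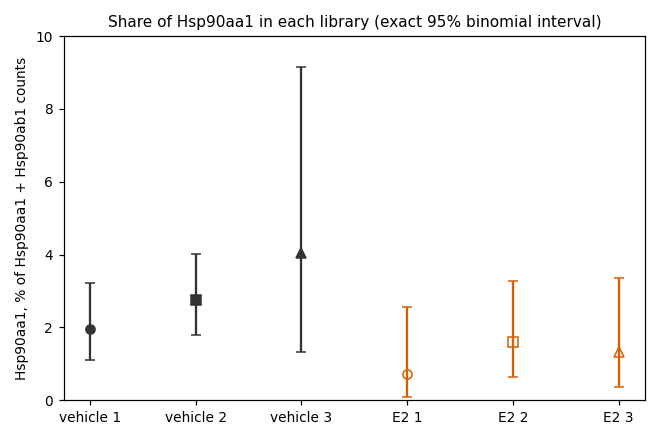
Share of Hsp90aa1 in the summed counts of Hsp90aa1 and Hsp90ab1, in percent, for each library, with exact 95% binomial intervals that cover counting error only. The vehicle libraries lie between 1.97% and 4.03% and the E2 libraries between 0.717% and 1.61%, while the intervals overlap.

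In the Hspa family, 3 of 13 members were tested, and the mitochondrial Hspa9 was the only one of these with a higher level in every E2 library than in every vehicle library. Hspa9 (mortalin), which pulls imported proteins into the mitochondrial matrix and folds them there, had 48, 79 and 14 counts with vehicle and 30, 58 and 65 with E2. Its level was 169 ± 5.54 CPM with vehicle and 285 ± 43.1 CPM with E2 (SD, n = 3). The vehicle libraries lay close together, at 166, 175 and 165 CPM, and the lowest E2 library was at 238 CPM. These levels are less exact than they look. The 95% Poisson interval, for counting error only, was 90.2 to 277 CPM for the 14 counts of vehicle replicate 3. For the 30 counts of E2 replicate 1 it was 161 to 340 CPM, so these intervals overlapped. Its fitted log2 fold change was 0.90 (SE 0.43, 95% interval -0.0043 to 1.81, adjusted p = 0.195 in edgeR's quasi-likelihood test). It was 1.01 without vehicle replicate 3, where the adjusted p was 0.0135, and 0.91 without vehicle replicates 1 and 2, where it was 0.673.

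Hspa8, the constitutive cytosolic Hsp70 that also uncoats clathrin vesicles, had 32, 43 and 6 counts with vehicle and 9, 11 and 10 with E2. These are 111, 95.3 and 70.7 CPM with vehicle and 71.5, 55.4 and 49.7 CPM with E2, with vehicle replicate 3 just inside the E2 range. Its log2 fold change was -0.58 (SE 0.44, 95% interval -1.50 to 0.33, adjusted p = 0.420 in edgeR's quasi-likelihood test), and it was -0.19 (SE 0.81) without vehicle replicates 1 and 2. The stress-inducible genes Hspa1a and Hspa1b had 1 and 3 counts in all and are near-identical copies, so reads could be split between them. Hspa1l, which lies beside them and is known from testis, had 6, 12 and 3 counts with vehicle and 5, 5 and 3 with E2. Its exons share 1778 bases with Gm10501 on the opposite strand. Hspa12b, a distant Hsp70 relative known from endothelial cells, had 2, 5 and 3 counts with vehicle and 0, 5 and 1 with E2, too few to be tested. The 6 other members of the family had between 3 and 10 counts in all.

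Among the ER members, the lectin chaperone Canx (calnexin), which holds newly made glycoproteins in the folding cycle, had the lowest p of all members, whereas the Hsp70 of the ER, Hspa5, did not pass the test. Canx had 268, 449 and 17 counts with vehicle and 29, 36 and 32 with E2. These are 928, 995 and 200 CPM with vehicle and 230, 181 and 159 CPM with E2. Vehicle replicates 1 and 2 were high, and vehicle replicate 3 lay within the E2 range. The fitted log2 fold change was -1.78 (SE 0.54, 95% interval -2.91 to -0.66, unadjusted p = 0.00356, adjusted p = 0.0572 in edgeR's quasi-likelihood test). Without vehicle replicate 3 it was -2.10 (adjusted p = 1.87e-05), and without vehicle replicates 1 and 2 it was 0.01 (SE 0.58, adjusted p = 0.995). In GENCODE no exon of another gene overlaps Canx. Calr (calreticulin), the soluble counterpart of Canx, had 13, 16 and 2 counts with vehicle and 3, 2 and 1 with E2, and was too low to be tested. Its level was 45.0, 35.5 and 23.6 CPM with vehicle and 23.8, 10.1 and 4.97 CPM with E2, so that vehicle replicate 3 lay just below the highest E2 library. Pdia3, the disulfide isomerase that works with both lectins, had 9 counts in all.

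Hspa5 (BiP), the ER Hsp70 and a classic marker of ER stress, had 23, 33 and 4 counts with vehicle and 7, 13 and 14 with E2. Its level was 66.7 ± 17.2 CPM with vehicle and 63.6 ± 7.22 CPM with E2 (SD, n = 3), and the log2 fold change was 0.01 (SE 0.45, 95% interval -0.92 to 0.95, adjusted p = 0.988 in edgeR's quasi-likelihood test), with a sign that turned to -0.16 under library totals. Without vehicle replicates 1 and 2 it was 0.54 (SE 0.88). Dnajc1, a J-domain protein of the ER membrane, had 38, 42 and 10 counts with vehicle and 27, 40 and 31 with E2. These are 132, 93.1 and 118 CPM with vehicle and 214, 201 and 154 CPM with E2, so that the groups did not overlap. The log2 fold change was 0.86 (SE 0.43, adjusted p = 0.218 in edgeR's quasi-likelihood test), 1.00 without vehicle replicate 3 (adjusted p = 0.0179) and 0.77 without vehicle replicates 1 and 2 (adjusted p = 0.733). Exons of Dnajc1 share 749 bases with Mllt10 on the opposite strand, which had 99 counts. Dnajc3 (P58IPK), a co-chaperone of BiP and inhibitor of the kinase PERK, had 8, 25 and 5 counts with vehicle and 5, 12 and 6 with E2 (log2 fold change 0.07, SE 0.55, adjusted p = 0.953 in edgeR's quasi-likelihood test, and -0.10 under library totals). Dnajc10, a reductase of the ER, had 7, 10 and 0 counts with vehicle and 0, 2 and 9 with E2, with its highest level in E2 replicate 3. The 13 ER members summed to 1471, 1581 and 648 CPM with vehicle and 707, 710 and 582 CPM with E2. Without Canx the sums were 544, 585 and 448 CPM with vehicle and 476, 529 and 423 CPM with E2, and the groups overlapped in both cases. This grouping by compartment was made after the values had been seen.

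Many ER chaperone promoters hold the ER stress response element, through which the factors ATF6 and XBP1 act with NF-Y. The letters CCAAT and CCACG with 9 bases between them were looked for on both strands in RefSeq windows of 300 bases around the start (GRCm38.p6), which were found for 64 members. They occurred in 5 of these (7.81%), Canx, Calr, Hsp90b1, Hspa5 and Dnajc3, and in 37 of 27025 genes in all (0.137%). The motif contains the CCAAT box, whose letters alone were in 28 of the 64 members (43.8%) and in 41.1% of all genes. The log2 fold changes were -1.78 for Canx (SE 0.54), -0.63 for Hsp90b1 (SE 0.42), 0.01 for Hspa5 (SE 0.45) and 0.07 for Dnajc3 (SE 0.55). Whether these values differ from each other was not tested, and that of Canx was 0.01 without vehicle replicates 1 and 2. The 5 stretches of 250 bases before the start are shown because these genes share the element. Each is written from 5′ to 3′ on the strand of the gene, with the matched letters in capitals.
Canx (chr11:50325674-50325923, minus strand): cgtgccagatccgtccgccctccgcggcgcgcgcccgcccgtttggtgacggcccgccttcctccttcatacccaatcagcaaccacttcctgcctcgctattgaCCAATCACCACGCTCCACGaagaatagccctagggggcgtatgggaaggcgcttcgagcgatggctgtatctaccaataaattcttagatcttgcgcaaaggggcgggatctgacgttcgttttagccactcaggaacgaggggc
Calr (chr8:84846932-84847181, minus strand): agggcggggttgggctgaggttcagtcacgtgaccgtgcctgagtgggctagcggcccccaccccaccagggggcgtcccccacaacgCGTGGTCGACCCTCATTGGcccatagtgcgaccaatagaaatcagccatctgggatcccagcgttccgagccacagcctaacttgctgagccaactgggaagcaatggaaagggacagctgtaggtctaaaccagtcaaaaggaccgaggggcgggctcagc
Hsp90b1 (chr10:86705445-86705694, minus strand): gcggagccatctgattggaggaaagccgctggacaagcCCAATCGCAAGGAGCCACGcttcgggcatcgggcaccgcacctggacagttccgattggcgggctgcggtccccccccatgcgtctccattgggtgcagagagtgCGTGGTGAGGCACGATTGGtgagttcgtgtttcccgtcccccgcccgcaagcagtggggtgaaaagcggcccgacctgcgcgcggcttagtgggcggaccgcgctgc
Hspa5 (chr2:34771840-34772089, plus strand): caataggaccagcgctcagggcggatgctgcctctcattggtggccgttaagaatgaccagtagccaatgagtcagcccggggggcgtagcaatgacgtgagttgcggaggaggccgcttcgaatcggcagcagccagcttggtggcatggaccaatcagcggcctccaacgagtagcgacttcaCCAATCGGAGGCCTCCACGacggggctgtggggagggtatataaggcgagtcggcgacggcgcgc
Dnajc3 (chr14:118937682-118937931, plus strand): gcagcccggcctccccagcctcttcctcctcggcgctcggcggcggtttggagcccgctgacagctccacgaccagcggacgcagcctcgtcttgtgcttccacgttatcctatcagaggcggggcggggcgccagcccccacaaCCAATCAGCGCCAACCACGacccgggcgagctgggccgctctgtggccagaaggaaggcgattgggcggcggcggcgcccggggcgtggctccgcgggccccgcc
The element starts 145 bases before the start of Canx, 162 before Calr, 65 before Hspa5 and 105 before Dnajc3, and Hsp90b1 has it at 212 and at 107 bases. A match is a description and not a binding site. The estrogen response element, GGTCA and TGACC with 3 bases between them, was in 0 of the 64 members and in 20 of the 27025 genes (0.074%), which says only that these letters are not in the windows.

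Of the mitochondrial members, Hspa9, Dnajc19 and Hspe1 were tested. Dnajc19, the J-domain subunit of the import motor that works with Hspa9, had 71, 98 and 52 counts with vehicle and 63, 68 and 91 with E2. These are 246, 217 and 613 CPM with vehicle and 500, 343 and 453 CPM with E2. Vehicle replicate 3 was the highest of all libraries, whereas vehicle replicates 1 and 2 lay below every E2 library. Fitted over all libraries, the log2 fold change was 0.46 (SE 0.50, adjusted p = 0.601 in edgeR's quasi-likelihood test), 1.16 without vehicle replicate 3 (adjusted p = 0.00661) and -0.39 without vehicle replicates 1 and 2 (adjusted p = 0.823). Exons of Dnajc19 share 178 bases with Fxr1 on the opposite strand, which had 99 counts. Hspe1 (Hsp10), the lid of the mitochondrial folding chamber, had 45, 88 and 28 counts with vehicle and 41, 65 and 31 with E2 (log2 fold change 0.38, SE 0.47, adjusted p = 0.647 in the same test). Its levels were 156, 195 and 330 CPM with vehicle and 326, 327 and 154 CPM with E2, so each group held both low and high libraries. Its log2 fold change was 0.82 without vehicle replicate 3 (adjusted p = 0.0427) and -0.23 without vehicle replicates 1 and 2. Hspd1 (Hsp60), the chamber itself, had 15, 18 and 1 counts with vehicle and 2, 8 and 2 with E2 and was not tested. The 8 mitochondrial members summed to 689, 694 and 1144 CPM with vehicle and to 1143, 1022 and 955 CPM with E2, with vehicle replicate 3 level with the highest E2 library.

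Hspe1 and Hspd1 lie head to head on chromosome 1 and their exons share 112 bases on opposite strands. Heat shock factors bind inverted repeats of GAA, and the units GAA, TTC and GAA with 2 bases between neighbours were found on either strand in 4 of the 64 members (6.25%), Hspd1, Hspe1, Hsph1 and Dnajb6, against 179 of 27025 genes (0.662%). The stretch of 250 bases before Hspe1 is shown because it holds 2 overlapping matches, in capitals, that also lie in a window of Hspd1.
Hspe1 (chr1:55087898-55088147, plus strand): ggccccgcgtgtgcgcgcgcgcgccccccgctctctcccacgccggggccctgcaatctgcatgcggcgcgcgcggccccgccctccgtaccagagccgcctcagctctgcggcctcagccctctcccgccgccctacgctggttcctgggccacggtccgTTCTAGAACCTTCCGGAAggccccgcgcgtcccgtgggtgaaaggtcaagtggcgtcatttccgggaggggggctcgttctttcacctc
The matches begin 89 and 84 bases before the start of Hspe1. Hsph1 (Hsp110), a nucleotide exchange factor of Hsp70, had 4, 11 and 0 counts with vehicle and 0, 3 and 0 with E2. Dnajb6 had 3, 9 and 1 counts with vehicle and 2, 3 and 5 with E2.

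In the Dnaj family, 8 of 45 members were tested, and Dnajc21 and Dnaja4 shared the pattern of Canx. In it, vehicle replicates 1 and 2 lay above all E2 libraries and vehicle replicate 3 below the highest of them. Hspa8 and Hspa5 had this pattern too, and so did 22.1% of all genes tested. Dnajc21, which acts in maturation of the large ribosomal subunit, had 72, 137 and 1 counts with vehicle and 6, 13 and 3 with E2. These are 249, 304 and 11.8 CPM with vehicle and 47.6, 65.5 and 14.9 CPM with E2, so that vehicle replicate 3 was the lowest library, with a single count. This gave a log2 fold change of -2.15 (SE 0.66, 95% interval -3.54 to -0.765, unadjusted p = 0.00423, adjusted p = 0.0630 in edgeR's quasi-likelihood test). It was -2.48 without vehicle replicate 3 (adjusted p = 3.86e-05) and 1.83 without vehicle replicates 1 and 2 (SE 1.75, adjusted p = 0.766), where it rests on that 1 vehicle count. Dnaja4, a cytosolic co-chaperone of Hsp70, had 90, 142 and 8 counts with vehicle and 9, 27 and 27 with E2. Its levels were 312, 315 and 94.3 CPM with vehicle and 71.5, 136 and 134 CPM with E2, with vehicle replicate 3 within the E2 range. The log2 fold change was -0.96 (SE 0.49, adjusted p = 0.224 in edgeR's quasi-likelihood test), -1.16 without vehicle replicate 3 (adjusted p = 0.00661) and 0.41 without vehicle replicates 1 and 2 (adjusted p = 0.865). Exons of Dnaja4 share 1581 bases with Wdr61 on the opposite strand, which was listed at 0 counts. The sources used here do not say whether reads were counted by strand, and without it reads of a gene and its opposite-strand partner cannot be told apart.

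Dnaja1, the main cytosolic partner of Hspa8 in this class, had 41, 83 and 15 counts with vehicle and 33, 37 and 39 with E2. Its levels were 142, 184 and 177 CPM with vehicle and 262, 186 and 194 CPM with E2, so that the groups were separated by a narrow margin, between vehicle replicate 2 and E2 replicate 2. The fitted log2 fold change was 0.49 (SE 0.43, adjusted p = 0.492 in edgeR's quasi-likelihood test). Exons of Dnaja1 share 608 bases with Smu1 and 249 with Gm6297, both on the opposite strand, which had 22 and 154 counts. Dnaja2, a further cytosolic partner, had 23, 26 and 6 counts with vehicle and 6, 11 and 14 with E2 (log2 fold change -0.08, SE 0.46, 95% interval -1.04 to 0.88, adjusted p = 0.927 in the same test), and its sign turned to 0.05 without vehicle replicate 3. Dnajc14, a membrane-bound J-domain protein, had 8, 29 and 12 counts with vehicle and 16, 25 and 20 with E2. Its levels were 27.7, 64.3 and 141 CPM with vehicle and 127, 126 and 99.5 CPM with E2, with vehicle replicate 3 the highest library. Its log2 fold change with E2 was 0.94 (SE 0.51, adjusted p = 0.246 in edgeR's quasi-likelihood test), 1.52 without vehicle replicate 3 (adjusted p = 0.00385) and -0.18 without vehicle replicates 1 and 2 (adjusted p = 0.949). Exons of Dnajc14 share 1114 bases with Ormdl2 on the opposite strand, which had 414 counts, more than Dnajc14 itself (110).

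Of the Dnaj genes too low to be tested, 13 had 20 or more counts. Dnajb5 had 14, 33 and 0 counts with vehicle and 1, 8 and 9 with E2, Dnajc7, which bridges Hsp70 and Hsp90, had 10, 27 and 4 and then 4, 13 and 4, and Dnajc13, an endosomal trafficking protein, had 17, 18 and 1 and then 3, 5 and 3. Dnajc2, a ribosome-associated J-domain protein, had 16, 16 and 1 counts with vehicle and 2, 4 and 2 with E2. Dnajb4 had 9, 14 and 1 counts with vehicle and 4, 4 and 1 with E2, and Dnajb2 had 8, 14 and 2 and then 1, 2 and 5. Counts of the mitochondrial Dnajc11 were 10, 18 and 1 with vehicle and 2, 1 and 1 with E2, and those of the mitochondrial Dnaja3 were 7, 9 and 1 and then 3, 3 and 2. Dnajc17, found with the spliceosome, had 12, 15 and 0 counts with vehicle and 0, 2 and 0 with E2. Dnajc8, also found with the spliceosome, had 5, 14 and 0 counts with vehicle and 1, 2 and 1 with E2. Dnajc18 had 6, 10 and 0 counts with vehicle and 8, 4 and 1 with E2. In 12 of these 13 genes the count in vehicle replicate 3 was 2 or less, and in that library the limit that a count of 0 allows is high. For Dnajc17 the 0 in vehicle replicate 3 allows up to 35.4 CPM, which is near the levels of 41.5 and 33.3 CPM in vehicle replicates 1 and 2. Dnajb1, the classic stress-inducible partner of Hsp70, had 3, 8 and 0 counts with vehicle and 2, 2 and 1 with E2.

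None of the 8 Hspb genes passed the filter on low counts, and of the small heat shock proteins Cryab (αB-crystallin) was tested. Cryab, which is abundant in striated muscle and binds desmin and titin, had 45, 31 and 24 counts with vehicle and 43, 64 and 30 with E2. These are 156, 68.7 and 283 CPM with vehicle and 341, 322 and 149 CPM with E2. The groups overlapped, with vehicle replicate 3 among the high libraries and E2 replicate 3 among the low ones. The log2 fold change was 0.85 (SE 0.53, adjusted p = 0.320 in edgeR's quasi-likelihood test), 1.51 without vehicle replicate 3 (adjusted p = 0.00350) and -0.0014 without vehicle replicates 1 and 2. Exons of Cryab share 252 bases with its neighbour Hspb2 on the opposite strand, which had 8, 7 and 0 counts with vehicle and 2, 7 and 4 with E2.

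Among the forms known from muscle, Hspb6 had 12, 26 and 1 counts with vehicle and 3, 10 and 9 with E2. Hspb7 had 4, 13 and 2 counts with vehicle and 1, 8 and 7 with E2, and Hspb3 had 3, 16 and 2 and then 3, 4 and 3. In each of these genes vehicle replicate 2 had the most counts. Bag3, the exchange factor that joins small heat shock proteins to Hsp70, had 11, 15 and 4 counts with vehicle and 3, 10 and 9 with E2. Its level per kilobase was 15.4 ± 2.75 CPM with vehicle and 15.5 ± 5.46 with E2 (SD, n = 3). Hspb1 (Hsp27), the broadly expressed form that E2 is known to induce in other cells, had 2, 2 and 2 counts with vehicle and 1, 5 and 11 with E2. These are 6.92, 4.43 and 23.6 CPM with vehicle and 7.94, 25.2 and 54.7 CPM with E2, so that the order rests on few counts and vehicle replicate 3 lay just below E2 replicate 2. Without a filter on low counts its log2 fold change was 1.98 (SE 0.82, unadjusted p = 0.0161, adjusted p = 0.300 in edgeR's quasi-likelihood test). In that fit the untested members Dnajb7 (4.16, unadjusted p = 0.0163) and Dnajc27 (2.74, unadjusted p = 0.0488) went the same way as Hspb1. Others went the other way, Dnajc17 at -2.85 (unadjusted p = 0.00353), Dnajc11 at -2.01 (unadjusted p = 0.0165) and Calr at -1.62 (unadjusted p = 0.0340). Their adjusted p lay between 0.140 and 0.491 in edgeR's quasi-likelihood test. By the looser rule 6.81% of all genes in that fit were lower and 3.27% higher. Hspb1 too is in a list that the study drew from these libraries. The 9 genes for small heat shock proteins and Bag3 summed to 301, 253 and 413 CPM with vehicle and to 461, 549 and 373 CPM with E2. Skeletal muscle fiber markers, all 20 of them detected, had their lowest sums in E2 replicate 3 (75658 CPM) and vehicle replicate 3 (79412 CPM) and their highest in vehicle replicate 1 (119209 CPM). All 20 were tested, 15 with a log2 fold change below 0 and 5 above (median -0.51), and 4 were lower and 2 higher at an unadjusted p up to 0.05, against 15.1% and 10.5% of all genes. Every E2 library was below every vehicle library for 7 of them and above for 1, against 12.8% and 8.68%. Their part in these values was not tested.

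By family, the summed level of the 13 Hspa genes was 398, 421 and 377 CPM with vehicle and 437, 529 and 478 CPM with E2, and these groups did not overlap. Hspa9, the member with the most counts, held 49.6% of them, and without it (a choice made after the values were seen) the sums were 232, 246 and 212 CPM with vehicle and 199, 237 and 154 CPM with E2, which overlapped. The Hsp90 sums were 2292 ± 607 CPM with vehicle and 2108 ± 426 with E2, the Dnaj sums 1677 ± 207 and 1547 ± 125, and the Hspb sums 114 ± 34.5 and 150 ± 47.6 CPM (SD, n = 3). In the latter 3 families the groups overlapped.

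**Figure D4:**
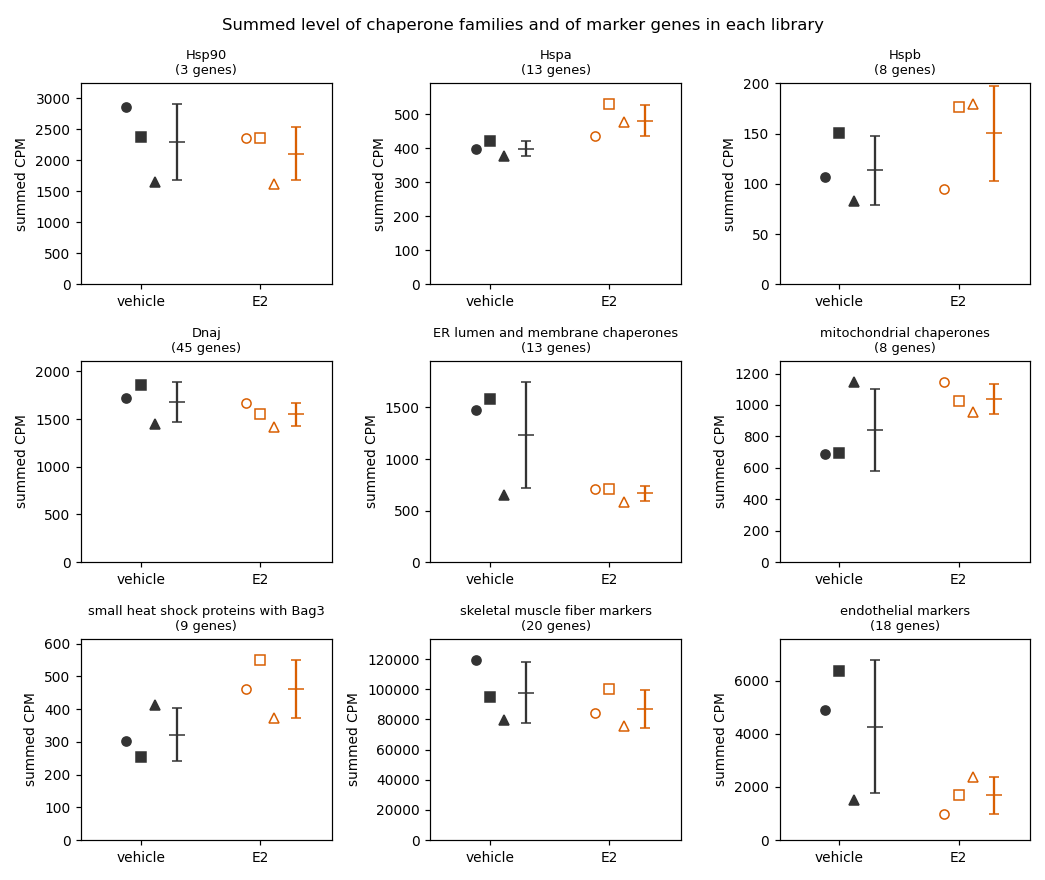
Summed level in CPM of the chaperone families, of members grouped by compartment and of muscle and endothelial markers, with 1 symbol per library (filled vehicle, open E2, shape by replicate number) and the mean ± SD of 3 libraries beside each group. The ER members and the endothelial markers are highest in vehicle replicates 1 and 2, and the Hspa sums do not overlap between the groups.

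Over the 17 tested members, vehicle replicates 1 and 2 both lay above all E2 libraries for 7 (Canx, Dnajc21, Dnaja4, Hsp90aa1, Hsp90b1, Hspa8 and Hspa5), where 34.8% of all genes tested did. They both lay below all E2 libraries for 5 (Hspa9, Dnajc1, Dnajc14, Dnaja1 and Dnajc19), where 23.2% did. Vehicle replicate 3 was on the same side as vehicle replicates 1 and 2 for Hsp90aa1, Hsp90b1, Hspa9, Dnajc1 and Dnaja1, and it lay within or beyond the E2 range for the other 7. When vehicle replicate 3 was left out, 3 members were lower (Canx, Dnajc21 and Dnaja4) and 6 were higher (Hspe1, Dnajc14, Hspa9, Dnajc1, Dnajc19 and Cryab) of 19 tested, at an adjusted p below 0.05. In that fit 24.3% of all genes were lower and 22.1% higher. When vehicle replicates 1 and 2 were left out, 0 of 16 members tested were lower or higher at an adjusted p below 0.05 and 0 passed the looser rule either (0.0524% and 0.315% of all genes at the adjusted threshold, 2.88% and 7.08% at the unadjusted one). That fit has 1 vehicle library, which is assumed to vary like the E2 libraries. The 2 vehicle libraries with Y-linked counts and the treatment cannot be told apart in the results that rest on them.

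The wider chaperone network was followed through lists of genes that are no members. Of 28 co-chaperones of Hsp90 and Hsp70, 8 were tested and none passed either threshold, where 15.1% of all genes were lower and 10.5% higher at the looser one. Every E2 library was below every vehicle library for 2 of the 8 and above for 0, against 12.8% and 8.68% of all genes tested. The genes named here other than Pfdn1 were chosen after their values were seen. For Bag1, an exchange factor of Hsp70, the log2 fold change was 0.13 (SE 0.46), and St13 (Hip) and the ubiquitin ligase Stub1 (CHIP) had -0.06 and -0.66 (SEs 0.44 and 0.44). Of 14 subunits of the TRiC chaperonin and of prefoldin, 3 were tested, and Pfdn1 was lower at an unadjusted p of 0.0449 (log2 fold change -1.19, SE 0.56, adjusted p = 0.184 in edgeR's quasi-likelihood test). Of 21 ER folding enzymes 1 was tested, the disulfide isomerase P4hb (log2 fold change -0.30, SE 0.43). Of 11 regulators of the unfolded protein response 1 was tested, Ddit3 (CHOP), at 0.92 on the log2 scale (SE 0.48, adjusted p = 0.226 in edgeR's quasi-likelihood test) and with every E2 library above every vehicle library. The sums of these 11 genes did not overlap either, at 145, 160 and 94.3 CPM with vehicle and 199, 161 and 179 CPM with E2, with a narrow margin between vehicle replicate 2 and E2 replicate 2. The heat shock transcription factors had 20 counts in all over 5 genes, and none was tested.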

How the data were processed

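RNA bound to GFP-tagged ribosomes was sequenced in 3 vehicle and 3 E2 libraries. The deposited table holds raw read counts per gene. Per the submitters' processing notes, the authors used bcl2fastq 2.17, FastQC 0.11.2, STAR 2.5.3a and featureCounts (Subread 1.6.0) with mm10. The labels name a stranded total RNA kit and the methods a ribosome profiling kit, and the sources used here do not give the strand setting. From these counts, edgeR 4.0.16 (R 4.3.3; filterByExpr, TMM, quasi-likelihood test, Benjamini-Hochberg adjustment over all genes tested) compared E2 with vehicle. CPM was computed over library totals. The looser rule also asked for an average log2 CPM of 0 or more. DESeq2 1.42.0, limma 3.58.1 (voom), other scalings and filters, and fits without single libraries were alternatives, and the fit without vehicle replicates 1 and 2 was added after seeing the data. Exon overlaps and lengths came from GENCODE M21 and promoter windows from RefSeq. The scripts were tested on simulated data. Members with 20 or more counts or in the fit are named with every library's counts, and the members and lists were chosen with earlier results of these data known. The sources used here name no molecular identifiers, so the binomial and Poisson intervals and the limits at 0 counts cover counting error only. The edgeR intervals include the spread between libraries.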

Additional observations from a re-analysis of the deposited data

How the results depend on the processing

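Depth is a limit, since 54 of the 71 detected members were too low to be tested, and so is the vehicle group, since calls and signs change with the vehicle libraries kept. Leaving out 1 library at a time gave 0 to 3 lower and 0 to 6 higher members at an adjusted p below 0.05, and 2 to 3 lower and 0 to 6 higher at an unadjusted p of 0.05 or less. Over all genes it gave 2 to 526 lower and 6 to 477 higher (adjusted), and 159 to 597 lower and 98 to 560 higher (unadjusted). Both maxima of the adjusted counts came without vehicle replicate 3. Without a filter on low counts 2 of 71 members were lower (adjusted), 6 lower (Calr, Canx, Dnaja4, Dnajc11, Dnajc17 and Dnajc21) and 3 higher (Dnajb7, Dnajc27 and Hspb1, unadjusted), with 132 of all genes lower (0.939%, adjusted) and 957 lower (6.81%) and 459 higher (3.27%, unadjusted). With at least 10 counts in every library 0 of all genes were lower and 11 higher (adjusted), and 89 lower (15.4%) and 69 higher (unadjusted), with 2 of 9 members lower (unadjusted), Canx and Hsp90b1. Scaling by library totals gave 2 lower members of 17 and 90 lower genes (5.35%, adjusted). The likelihood ratio test gave 2 lower members, 152 lower (9.04%) and 105 higher genes (adjusted) and 3 lower (Canx, Dnajc21 and Hsp90aa1) and 2 higher members (unadjusted, 17.2% and 13% of all genes). DESeq2 gave 1 lower member (adjusted, 2.91% of all genes) and 1 higher (unadjusted, 8.09%). Limma-voom gave 9 lower (0.535%) and 63 higher genes (3.75%, adjusted), so that most calls were higher where the edgeR test had 50 lower and 42 higher, and 1 lower and 3 higher members of 17 (unadjusted, 12.1% and 15.7% of all genes). The replicate numbers did not pair the libraries (same-number correlations -0.126, 0.0260 and -0.197), and with the replicate block 1 gene was lower and 7 higher (adjusted), with no change in the members called. Without vehicle replicates 1 and 2, 1 gene was lower and 6 higher (adjusted), 55 lower and 0 members lower (unadjusted).

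In that fit the log2 fold change turned for Dnajc19 (-0.39), Dnaja4 (0.41), Dnajc21 (1.83), Dnajc14 (-0.18), Canx (0.013), Cryab (-0.0014) and Hspe1 (-0.23). The log2 ratio of summed levels became 0.35 for Hsp90, 0.094 for Dnaj and -0.095 for the genes added by name, and the difference in Hsp90aa1 share became -2.82 points. The Hspa ratio was 0.40 without Rn45s. Near 0, signs turned for Dnajc3 (-0.041 without a filter, -0.10 with library totals), Hsp90ab1 (-0.050 without a filter, -0.19 with 10 counts in every library, -0.081 with library totals) and Hspa5 (-0.10 without a filter, -0.00013 with RLE scaling, -0.16 with library totals, -0.012 with voom). Leaving out 1 library gave -0.37 to 0.18 for Dnaja2, -0.28 to 0.30 for Dnajc3, -0.051 to 0.27 for Hsp90ab1 and -0.080 to 0.24 for Hspa5. The cause was not tested.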
